A study of Mus musculus with 25 samples.

Results

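Cultured cardiac myocytes of newborn mice that carry a CHF1/Hey2 transgene were compared with cultures of wild type mice after stimulation with serum. The comparison used 14 of the 25 arrays of the study, 7 of transgenic (TG) and 7 of wild type (WT) cultures, chosen by the source name of each array, and all 35557 probe sets of the Affymetrix Mouse Gene 1.0 ST array. In TG mice the transgene overexpresses CHF1/Hey2 in the myocardium, driven by the mlc2v promoter, the promoter of the ventricular myosin light chain gene Myl2, so that its expression depends on cells in which this promoter is active. Cultures of both genotypes were kept in serum-free medium and then exposed to 20% fetal bovine serum, a hypertrophic stimulus, for 24 hours before RNA was isolated. The other 11 arrays, 6 of TG and 5 of WT cultures, received no serum. Each array held the RNA of 1 culture. The study counts the cultures as independent and does not state whether they came from separate litters, so each p below measures the spread between these cultures. The study checked the purity of each preparation by staining for sarcomeric myosin and reports that nearly all cells were myocytes.

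CHF1/Hey2 is a basic helix-loop-helix protein of the Hairy-related family, which acts downstream of Notch receptors and mostly represses transcription. In the heart it is expressed in ventricular rather than atrial myocardium and takes part in the development of the ventricular wall and septum. A culture of neonatal heart cells is never made of myocytes alone. Endothelial cells, fibroblasts and epicardial cells come along in varying proportion, and each brings its own transcripts into the RNA.

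Genes were named by a rule given under processing, and Actc1, Cmya5, Myl7, Irx5 and Sqstm1 after their values were seen. Ndufs5 was named because the study lists it. The question was which transcripts differed between TG and WT cultures with serum, above all among genes that cardiac myocytes express well. The deposited values were normalized intensities on the log2 scale, so a difference of 1 is a doubling. Medians per array were 5.21 to 5.36, and any pair of arrays correlated, over all probe sets, with a Pearson r of 0.985 to 0.993 within a genotype and 0.984 to 0.992 between genotypes. A probe set was assigned to a gene where it carried 1 gene symbol, and the brightest such probe set stood for the gene, which gave 19938 genes. Genes with a mean of 7 or more over the 14 arrays, 7652 in all, were taken as well expressed. Differences are given as TG minus WT in log2 units with their standard error (SE), from limma, with Benjamini-Hochberg adjustment over the whole array.

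Hey2 was the only named gene that passed an adjusted p under 0.05. Its values ran from 6.59 to 7.36 (median 6.82) in the 7 WT arrays and from 7.94 to 9.36 (median 8.84) in the 7 TG arrays. The groups did not overlap, but TG cultures varied more among themselves, with an SD of 0.53 against 0.25 in WT. The difference was 1.81 (SE 0.20, 95% confidence interval 1.38 to 2.25, limma adjusted p = 0.00972), a ratio of 3.52. Without serum it was 1.58, on other arrays, and whether those cultures share preparations with these is not stated. Over 28 alternative settings the difference was 1.59 to 1.94 and the adjusted p 0.000434 to 0.0888. The highest p came without WT cultures 3 and 4, where the difference was 1.80 and the call was lost. The probe set cannot tell transcripts of the transgene from those of the mouse gene.

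Besides Hey2, the test called only the unnamed probe sets 10338772 (0.59) and 10339585 (-0.77, both limma adjusted p = 0.0357), so 3 of 35557 probe sets passed, or 0.00844%. The first of the unnamed pair lost its call under 13 of 26 alternatives and the other under 16 of 26. The annotation used here gives no gene for either, so whether they measure a transcript is not known. The study's own threshold, an unadjusted p under 0.0001, was met by 23 (0.0647%), of which 11 were higher and 12 lower in TG. Of these, 15 were unnamed, 1 carried several symbols and 7 carried 1 symbol. The 7 were Hey2, Trdn, Cecr2, Efcab2, Ndufv3, Il1f6 and Tmc4. For each of the 7 genes the arrays of TG and WT did not overlap. The study's own list at this threshold also holds Ndufs5 and does not hold Trdn. The probe set that stood for Ndufs5 here differed by 0.21 (SE 0.08, limma adjusted p = 0.394).

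Trdn encodes triadin, which anchors calsequestrin to the ryanodine receptor at the junction of the sarcoplasmic reticulum. Its probe set 10362434 read 6.76 to 7.46 (median 7.26) in WT and 7.71 to 8.36 (median 7.99) in TG, a difference of 0.83 (SE 0.12, limma adjusted p = 0.0538). The array holds 19 probe sets for this gene, which read different stretches of the same transcripts and are not independent. Of the 11 with a mean of 5 or more, all 11 were higher in TG, by 0.27 to 0.83 with a median of 0.47, and 10 had an unadjusted p under 0.05. The brightest of them, 10362404, overlapped between the groups, with WT arrays at 7.79 to 8.91 and TG arrays at 8.23 to 9.46. Without serum the median difference over the 11 was 0.24.

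Ndufv3 encodes an accessory subunit of mitochondrial complex I. It read 7.18 to 7.46 (median 7.32) in WT and 7.50 to 7.79 (median 7.64) in TG, a difference of 0.35 (SE 0.06, limma adjusted p = 0.121), against -0.08 without serum. The other 4 genes were dimmer. Cecr2, a chromatin remodelling factor, read 4.04 to 4.45 in WT and 4.52 to 4.81 in TG. Efcab2 read 4.08 to 4.63 in WT and 4.75 to 5.16 in TG. Il1f6, a cytokine of the interleukin-1 family, was lower in TG at 2.91 to 3.33 against 3.36 to 3.61 in WT, near the bottom of the array's range. Tmc4, a transmembrane protein gene, was lower in TG at 5.27 to 5.45 against 5.51 to 5.74.

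**Figure D1:**
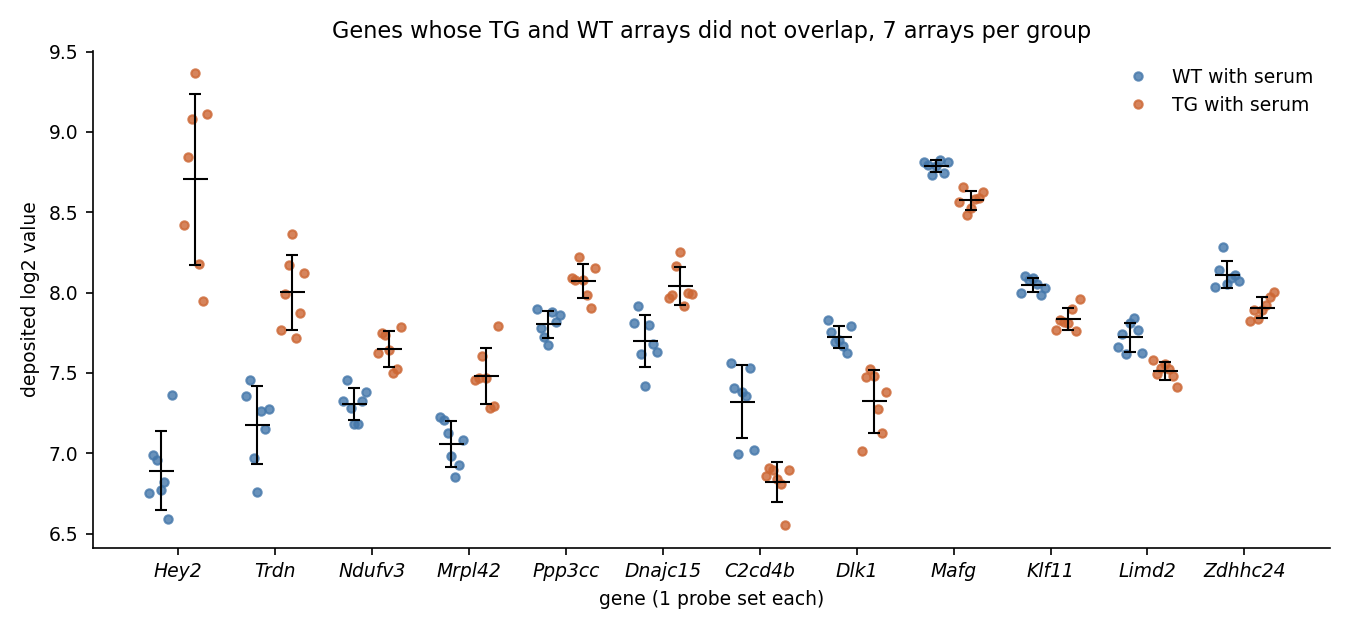
Deposited log2 values of 12 genes in each WT (blue) and TG (orange) array with serum, with the mean and SD of each group as a bar and whiskers (n = 7). The genes were picked because their groups do not overlap, Trdn is shown by probe set 10362434, and the TG spread of Hey2 exceeds that of every other gene drawn.

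Among the 7652 well expressed genes, 669 were higher in TG at an unadjusted p under 0.05 (8.74%) and 284 were lower (3.71%). Over all 19938 genes the direction was the opposite, with 1028 higher (5.16%) and 1261 lower (6.32%). The split among the well expressed genes depended on the scaling, since 70.2% of their 953 differences were higher in TG with the deposited values, 53.5% after quantile normalization over the 14 arrays and 93.7% after each array was centred on its median. Over all well expressed genes, 57.3% were higher in TG with a median difference of 0.02, and the median was 0.004 and 0.07 after these scalings. At equal myocyte content, explained below, 64.9% were higher. The counts for gene lists below are to be read beside these shares. Leaving out 1 array in turn gave 579 to 1840 differences at that p, with 634 found without WT culture 4, 616, 579 and 596 without TG cultures 2, 3 and 4, and 1840 without TG culture 6. TG arrays all lay above WT arrays in 18 well expressed genes (0.235%) and all below in 9 (0.118%).

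The well expressed genes with the smallest p in the direction of higher values were Hey2, Ndufv3, Mrpl42, AY036118, Ppp3cc, Immp1l, Haus1, Fundc2, Dnajc15 and Ppa2. Mrpl42, a mitochondrial ribosomal protein gene, read 6.85 to 7.22 (median 7.08) in WT and 7.28 to 7.79 (median 7.47) in TG, a difference of 0.42 (SE 0.09, limma adjusted p = 0.164). Dnajc15, a cochaperone gene of mitochondrial protein import, lay at 7.42 to 7.92 in WT and 7.92 to 8.25 in TG, just without overlap. Ppp3cc, a catalytic subunit of the phosphatase calcineurin, read 7.67 to 7.90 in WT and 7.90 to 8.22 in TG without overlap, a difference of 0.27 (SE 0.06, limma adjusted p = 0.185). None of these 10 other than Hey2 passed the adjusted test, and their adjusted p lay between 0.121 and 0.249.

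In the direction of lower values the well expressed genes with the smallest p were C2cd4b, Dlk1, Mafg, Klf11, Ddit4, 5730408K05Rik, Mir341, Limd2, Zdhhc24 and Hrk. C2cd4b, a nuclear protein gene known from endothelial and islet cells, read 6.99 to 7.56 (median 7.38) in WT and 6.55 to 6.91 (median 6.86) in TG, a difference of -0.50 (SE 0.10, limma adjusted p = 0.148). Dlk1, a membrane protein related to Notch ligands, read 7.63 to 7.83 in WT and 7.01 to 7.52 in TG, a difference of -0.40 (SE 0.08, limma adjusted p = 0.164). The groups did not overlap in either gene. Mir341 comes from the imprinted region of chromosome 12 that also holds Dlk1, and it differed by -0.25 (SE 0.06), with groups that overlapped. Mafg, a small Maf partner of basic leucine zipper factors, differed by -0.21 (SE 0.04, limma adjusted p = 0.164), and its WT arrays lay within 8.73 to 8.83.

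Klf11 encodes a Kruppel-like transcriptional repressor. It read 7.99 to 8.10 (median 8.05) in WT and 7.76 to 7.96 (median 7.82) in TG, a difference of -0.21 (SE 0.05, limma adjusted p = 0.184) with no overlap. Ddit4, a stress-induced inhibitor of the mTOR kinase, read 8.46 to 8.82 in WT and 8.03 to 8.47 in TG, a difference of -0.38 (SE 0.08, limma adjusted p = 0.188), and the groups touched. Without serum Klf11 differed by -0.07 and Ddit4 by 0.04.

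The 250 bases before the RefSeq start (build GRCm38.p6) are shown for 3 genes. Myl2 supplies the promoter that drives the transgene, and Ryr2 is the calcium release channel whose level followed the myocyte content of the cultures. Klf11 was 1 of the 9 well expressed genes whose TG arrays all lay below the WT arrays. The promoters of the others are not shown, so Klf11 does not stand for them. Capitals mark the 6-base motifs CACGTG and CACGCG (also read as CGCGTG on the other strand), which proteins of the Hairy-related family are known to bind. Both Myl2 starts, at chr5:122092474-122092723 and chr5:122092939-122093188 on the plus strand, hold neither motif. The Klf11 window, chr12:24651121-24651370 on the plus strand, holds 1 of each. The Ryr2 window, chr13:12106946-12107195 on the minus strand, holds 1 CACGCG.
Myl2, first start: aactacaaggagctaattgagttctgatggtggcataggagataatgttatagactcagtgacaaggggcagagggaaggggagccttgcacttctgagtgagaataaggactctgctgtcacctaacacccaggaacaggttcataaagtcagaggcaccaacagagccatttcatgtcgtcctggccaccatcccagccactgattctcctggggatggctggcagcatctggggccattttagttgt
Myl2, second start: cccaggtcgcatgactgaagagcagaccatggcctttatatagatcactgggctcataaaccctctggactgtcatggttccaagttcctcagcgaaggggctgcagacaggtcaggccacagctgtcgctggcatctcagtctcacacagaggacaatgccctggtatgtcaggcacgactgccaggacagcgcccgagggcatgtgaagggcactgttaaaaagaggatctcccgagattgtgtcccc
Klf11: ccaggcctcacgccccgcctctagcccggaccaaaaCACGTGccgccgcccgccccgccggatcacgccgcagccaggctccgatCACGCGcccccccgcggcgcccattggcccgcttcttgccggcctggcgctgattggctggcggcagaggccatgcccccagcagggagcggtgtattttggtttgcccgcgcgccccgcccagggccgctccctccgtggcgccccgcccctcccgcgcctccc
Ryr2: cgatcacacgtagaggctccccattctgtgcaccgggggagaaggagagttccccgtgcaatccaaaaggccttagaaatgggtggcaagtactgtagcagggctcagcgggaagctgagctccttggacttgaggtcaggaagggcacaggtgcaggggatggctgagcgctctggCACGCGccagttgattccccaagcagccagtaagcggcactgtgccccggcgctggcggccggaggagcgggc

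A match is a description of letters and not a site of binding. Of the 27025 genes with a promoter in the table, 14.5% held at least 1 of the motifs, and 27.0% of the 6267 matched well expressed genes did. The share was 25.4% of the 562 matched genes that were higher in TG at an unadjusted p under 0.05 and 27.0% of the 226 that were lower. CACGTG alone stood in 8.01% of the higher and 15.5% of the lower genes, against 11.1% of the well expressed genes. CACGCG stood in 18.9% and 13.7%, against 17.9%. These shares were not tested against each other.

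The myocyte content of each culture was read from 20 marker genes of the sarcomere and its anchors, such as the troponins, titin and alpha-actinin, with Myl2 left out because its promoter drives the transgene. Each array's marker mean is the mean over the 20 genes of the log2 value minus the gene's mean over the 14 arrays. It ran from -0.64 to 0.18 (mean -0.17, SD 0.35) in WT and from -0.54 to 0.47 (mean 0.17, SD 0.36) in TG. WT cultures 3 and 4 and TG culture 6 stood apart at -0.64, -0.62 and -0.54, whereas the next lowest culture was at -0.21. The groups overlapped, and TG lay 0.33 higher on average. In bulk RNA, fewer myocytes and less of these transcripts in each myocyte cannot be told apart.

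All 20 myocyte markers were higher in TG, from 0.07 for Actc1 to 0.60 for Tcap with a median of 0.32, against -0.02 over all genes and 0.02 over the well expressed genes. Of the 20, 5 had an unadjusted p under 0.05 and 0 passed the adjusted test, against 1 of all 19938 genes. The 5 were Tcap, Fhl2, Myoz2, Myl3 and Cmya5. Without WT cultures 3 and 4 the median was 0.11, without these and TG culture 6 it was 0.24, and without TG culture 6 alone it was 0.46. In the cultures without serum 18 of the 20 were higher in TG, with a median of 0.14. The study's heat map of the cultures without serum shows none numbered WT 3, WT 4 or TG 6.

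Endothelial and epicardial markers lay the other way. Of 20 endothelial markers 19 were lower in TG, with a median of -0.23, or -0.10 without WT cultures 3 and 4, and their mean per array was -0.22 to 0.50 in WT and -0.44 to 0.35 in TG. Pecam1, an adhesion molecule of endothelial cells, read 5.32 to 6.86 in WT and 4.92 to 7.06 in TG. The 3 arrays with the highest endothelial mean were WT cultures 4 and 3 and TG culture 6, the same that had the lowest myocyte mean. Of the 20 endothelial markers 3 had a mean under 5, and 3 were well expressed. Among all genes with a mean of 5 to 7, 40.8% were higher in TG, with a median of -0.03. At a mean of 3 to 5 these values were 31.0% and -0.05. Without serum the endothelial median was -0.03, with 5 of 20 higher in TG. Of 19 epicardial and mesothelial markers 15 were lower in TG, with a median of -0.16, among them Upk1b, a uroplakin of mesothelium (-0.81, SE 0.35), and Lrrn4 (-0.72, SE 0.15, limma adjusted p = 0.172). The fibroblast and matrix markers were at -0.02 in the median, with 9 of 22 higher, and at 0.12 without WT cultures 3 and 4. Macrophage markers were at 0.10, with 14 of 20 higher, whereas without serum they were at -0.14, with 2 of 20 higher. The smooth muscle and pericyte markers were at 0.05. The 5 red cell markers measured, of which 4 had a mean under 5, were at -0.07, and the remaining 1, Slc4a1, at -0.22. The 7 neural crest and glial markers, of which 5 had a mean under 5, were at -0.08.

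**Figure D2:**
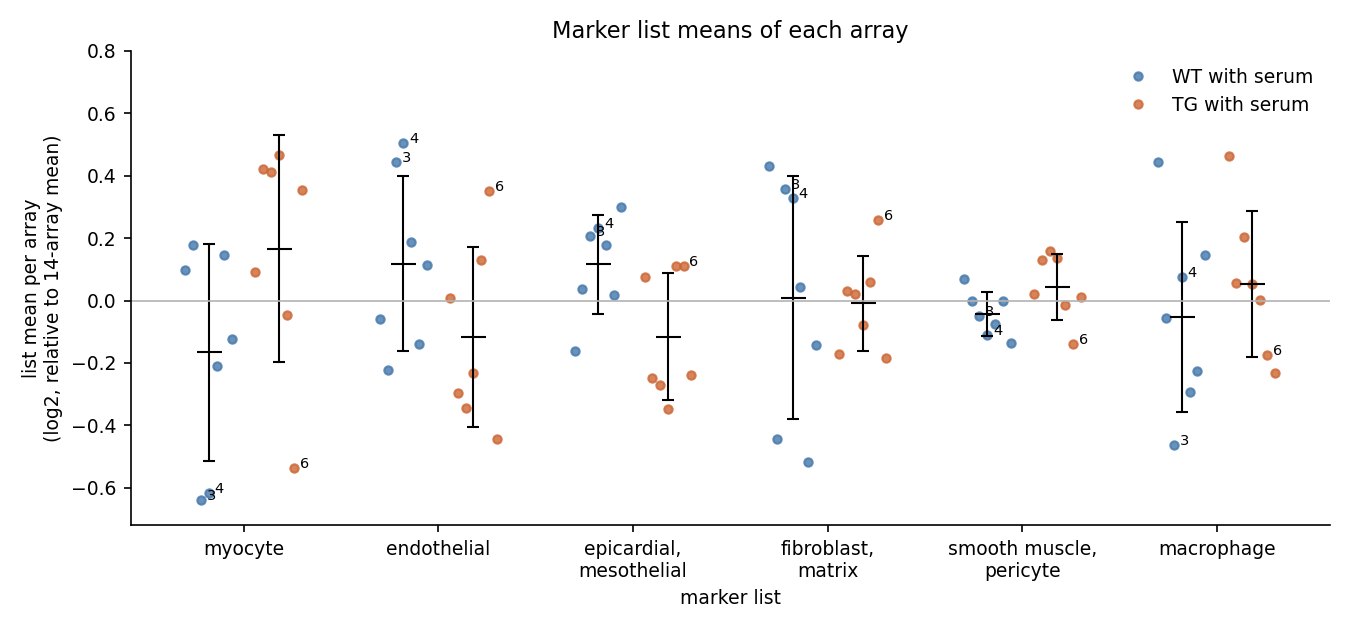
Mean of each marker list in each array, relative to its mean over the 14 arrays (log2), for WT (blue) and TG (orange) cultures with serum, with group mean and SD (n = 7). WT cultures 3 and 4 and TG culture 6 are numbered, which lie lowest in the myocyte list at -0.64, -0.62 and -0.54 and highest in the endothelial list.

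Each gene was then fitted with genotype and the myocyte marker mean as terms. The slope tells how a gene moved with myocyte content among cultures of the same genotype, and the genotype term is the TG difference at equal marker mean, written below as equal myocyte content. An effect of the transgene on the marker genes themselves would be taken out by this fit too, and the fit cannot tell it apart from a difference in cell number. The slope passed an adjusted p under 0.05 in 5237 probe sets outside the marker genes. Among all genes 9.06% rose and 10.5% fell with the marker mean. Among 7634 well expressed genes outside the marker list, 1335 (17.5%) rose and 1411 (18.5%) fell.

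The TG difference followed these slopes. The 1335 genes that rose with myocyte content had a median TG difference of 0.18, and 97.4% of them were higher in TG. The 1411 that fell had a median of -0.08, and 17.7% were higher. The other 4888 genes had a median of 0.02. At equal myocyte content the medians were 0.003, 0.07 and 0.03. Across the 7634 genes the difference and the slope had a Pearson r of 0.739 and a Spearman rho of 0.692. Genes are not independent replicates, and both quantities come from the same arrays and the same marker mean, so this is a description and was not tested. Of 950 well expressed genes outside the marker list with an unadjusted p under 0.05, 365 kept that p and their direction at equal myocyte content, 256 higher and 109 lower in TG.

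**Figure D3:**
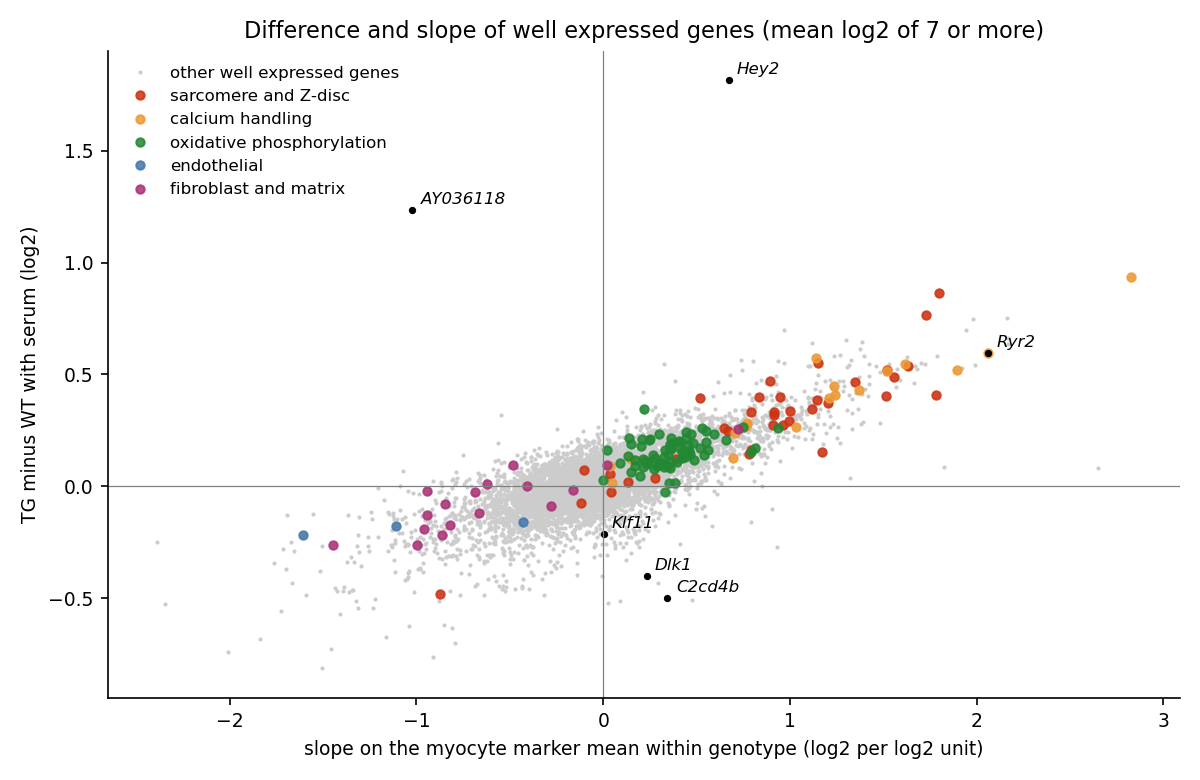
TG minus WT difference with serum (y axis, log2) against the slope on the myocyte marker mean within genotype (x axis), 1 point per well expressed gene outside the marker list, with 5 groups of genes coloured. Sarcomere, Z-disc and calcium handling genes lie to the upper right. Oxidative phosphorylation genes lie mostly to the right of the origin and above it, at smaller values. Hey2, AY036118, Klf11, Dlk1 and C2cd4b lie off the trend.

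Genes of the contractile apparatus were mostly higher in TG and followed myocyte content. Of 19 genes of the thick filament, thin filament and M-band 17 were higher, 3 at an unadjusted p under 0.05 (Tnnt1, Lmod3 and Lmod2), with a median of 0.34, and 16 rose with the marker mean. At equal myocyte content the median was -0.03, and with the endothelial marker mean as the covariate instead it was 0.01. Without WT cultures 3 and 4 it was 0.085, and without these and TG culture 6 it was 0.20. Myh7, the slow myosin heavy chain, read 9.41 to 10.7 in WT and 9.67 to 11.03 in TG, and its difference of 0.47 (SE 0.24) became 0.02 (SE 0.07). Myh6, the fast heavy chain and itself a marker, differed by 0.39 (SE 0.27). Myl2 differed by 0.29 (SE 0.18) and by -0.04 (SE 0.06) at equal content. Myl7, the atrial light chain, went against the list, at -0.48.

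Of 23 Z-disc and costamere genes 20 were higher in TG, 6 at an unadjusted p under 0.05, against 57.3% and 8.74% of the well expressed genes. Their median of 0.28 became 0.02 at equal content and 0.14 without WT cultures 3 and 4. Xirp2, an actin-binding repeat protein, differed by 0.87 (SE 0.38), and Ankrd23, a stretch-responsive ankyrin repeat protein, by 0.76 (SE 0.31). Synpo2l differed by 0.47 (SE 0.16) and by 0.17 (SE 0.05, limma adjusted p = 0.195) at equal content. Sgcd, delta-sarcoglycan, kept 0.17 of 0.55. In both the TG and WT arrays overlapped.

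In calcium handling 22 of 24 genes were higher in TG, against 57.3% of the well expressed genes. At an unadjusted p under 0.05, 2 were higher, a share like the 8.74% of the well expressed genes, and 1 was lower. The median of 0.28 became 0.01 at equal content and 0.12 without WT cultures 3 and 4. Ryr2, the calcium release channel, read 8.07 to 9.91 (median 9.04) in WT and 8.19 to 10.3 (median 9.93) in TG. Its difference of 0.59 (SE 0.36) became -0.09 (SE 0.06, 95% confidence interval -0.23 to 0.05). Pln, phospholamban, went from 0.41 to -0.01 and Atp2a2, the calcium pump it restrains, from 0.13 to -0.10. Hrc, a calcium-binding protein of the reticulum, kept 0.22 of 0.48. The brightest Trdn probe set, 10362404, kept 0.19 of 0.57, and probe set 10362434, shown above for its small p, 0.66 of 0.83 (SE 0.09, limma adjusted p = 0.0241). The median over the 11 Trdn probe sets at equal content was 0.20, with 10 of 11 higher and 6 at an unadjusted p under 0.05.

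Channels and junctions had medians of 0.16 and 0.24 that became -0.03 and -0.01 at equal content, and 0.05 and 0.08 without WT cultures 3 and 4. Among cardiac transcription factors 21 of 26 were higher in TG, 6 at an unadjusted p under 0.05, against 57.3% and 8.74% of the well expressed genes. Their median of 0.18 became 0.01 at equal content and 0.09 without WT cultures 3 and 4. The 3 Iroquois genes expressed in ventricular myocytes, Irx3, Irx4 and Irx5, differed by 0.56, 0.54 and 0.46, and by 0.25, 0.17 and 0.17 at equal content. Gata4, Nkx2-5 and Tbx5, factors of the core cardiac programme, differed by 0.14, 0.16 and 0.20. Fetal and hypertrophy markers had a median of 0.14 that became 0.02 at equal content and 0.10 without WT cultures 3 and 4. In this list Nppa, atrial natriuretic peptide, read 12.8 to 13.5 in WT and 12.8 to 13.7 in TG, and its difference of 0.25 (SE 0.14) became -0.01 (SE 0.04). Nppb went from 0.46 to 0.08, and Acta1, skeletal alpha-actin, from 0.15 to -0.24 (SE 0.11, limma adjusted p = 0.396).

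Genes of energy metabolism were higher in TG by smaller amounts. All 35 genes of complex I were higher, by 0.02 to 0.35 with a median of 0.17, and 14 had an unadjusted p under 0.05, or 14 of 35 against 8.74% of the well expressed genes. Of 38 genes of complexes II to V 37 were higher, 8 at that p, with a median of 0.14. The citric acid cycle (21 of 22 higher, 7 at that p, median 0.19) and fatty acid oxidation (22 of 24 higher, 9 at that p, median 0.17) showed the same direction. None passed the adjusted test. After quantile normalization the 4 medians were 0.17, 0.14, 0.18 and 0.17, and after centring 0.22, 0.19, 0.24 and 0.22. Without WT cultures 3 and 4 they were 0.09, 0.08, 0.09 and 0.09, and without these and TG culture 6 0.13, 0.11, 0.15 and 0.14.

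These genes also followed myocyte content, with 27 of 35, 30 of 38, 20 of 22 and 15 of 24 rising. At equal content the 4 medians were 0.04, 0.02, 0.03 and 0.04. Ndufv3 kept 0.27 (SE 0.05, limma adjusted p = 0.0832) of 0.35, Eci2, an enzyme of unsaturated fatty acid oxidation, 0.20 of 0.21, and Suclg1, a subunit of succinyl-CoA ligase, 0.19 of 0.32. Ckmt2, mitochondrial creatine kinase of striated muscle, read 5.66 to 7.49 in WT and 5.71 to 8.14 in TG, a difference of 0.89 (SE 0.36) that became 0.37. Glycolysis and glycogen genes had a median of 0.20 that became -0.02 at equal content and 0.05 without WT cultures 3 and 4.

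Mitochondrial import and ribosome genes followed myocyte content in 6 of 44 only. Of the 44 genes 35 were higher in TG, 8 at an unadjusted p under 0.05, with a median of 0.07, against 57.3%, 8.74% and 0.02 of the well expressed genes. At equal content 32 were higher and 8 had that p, with a median of 0.05, against 64.9%, 7.67% and 0.03. Without serum the median was 0.07 as well. Centring each array moved the median with serum to 0.12 and quantile normalization to 0.06.

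**Figure D4:**
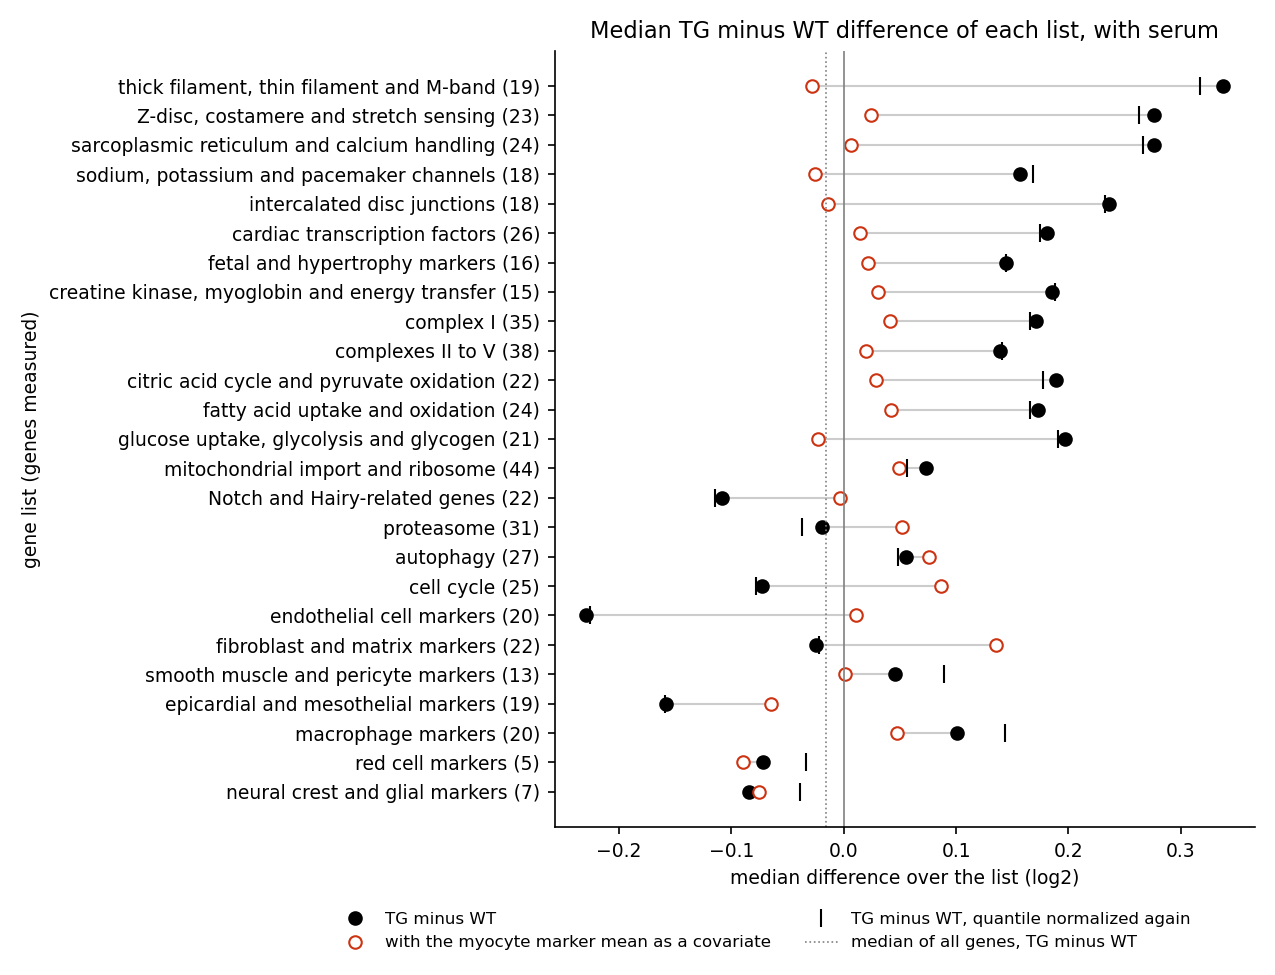
Median TG minus WT difference (x axis, log2) of each gene list with serum, from the deposited values (filled), with the myocyte marker mean as a covariate (open) and after quantile normalization again (tick), with the median of all genes dotted. The thick and thin filament list moves from 0.34 to -0.03, the endothelial list from -0.23 to 0.01 and the fibroblast list from -0.02 to 0.14.

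The list of Notch and Hairy-related genes also holds the inhibitors Id1, Id2, Id3 and Id4. Of its 22 genes, 12 well expressed, 17 were lower and 5 higher in TG, with a median of -0.11. Over all genes 44.6% were higher, with a median of -0.02, and over the well expressed genes 57.3%, with 0.02. At an unadjusted p under 0.05, 3 of the 22 were lower and 1 was higher. With myocyte content 9 of the 22 fell, against 10.5% of all and 18.5% of the well expressed genes. At equal content the median was 0.00 and 11 of 22 were higher. Hes1, another Hairy-type repressor and a Notch target, went the other way. It read 9.49 to 9.80 (median 9.58) in WT and 9.73 to 9.91 (median 9.88) in TG, a difference of 0.24 (SE 0.06, limma adjusted p = 0.290), and 0.24 at equal content. Notch3, a receptor of mural cells, was at -0.27 (SE 0.09) and -0.25, and Notch1 at -0.31 (SE 0.11) and -0.14. Hey1, the nearest relative of Hey2, was at -0.11 (SE 0.12) and Heyl at 0.14 (SE 0.08). Without serum Hes1 differed by -0.01 and Notch1 by -0.30.

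Autophagy genes were higher in TG in 19 of 27, 7 at an unadjusted p under 0.05, with a median of 0.06, against 57.3%, 8.74% and 0.02 of the well expressed genes. At equal content 23 were higher, 7 at that p, with a median of 0.08, against 64.9%, 7.67% and 0.03. Centring moved the median to 0.10, and that of the well expressed genes to 0.07. Bnip3, a mitophagy receptor, differed by 0.47 (SE 0.15), and 1 TG array at 9.35 lay above the others. Atg10, an E2-like conjugating enzyme, differed by 0.31 (SE 0.09) and Sqstm1, the p62 cargo receptor, by -0.15, so members did not all point one way. Proteasome genes had a median of -0.02, with 16 of 31 falling with myocyte content, and 0.05 at equal content. Cell cycle genes had a median of -0.07 with 0 of 25 at an unadjusted p under 0.05, and 0.09 at equal content, or 0.03 without WT cultures 3 and 4. Fibroblast markers turned from 9 of 22 to 21 of 22 higher at equal content, against 64.9% of the well expressed genes. Their median there was 0.14, with 0 at an unadjusted p under 0.05. TG had the higher marker mean, so this fit moves genes with falling slopes upward by construction. The fibroblast list had a median slope of -0.62, and the 1411 well expressed genes that fell moved from -0.08 to 0.07.

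At equal myocyte content 32 of 35557 probe sets passed an adjusted p under 0.05 (0.09%), 6 higher and 26 lower in TG. Of the 32, 4 unnamed probe sets had the same values in all 14 arrays, which leaves 29 distinct measurements, 6 higher and 23 lower. There were 18 unnamed probe sets and 14 with 1 symbol. The 14 were Hey2, Trdn, AY036118 and Usp17ld, which were higher, and C2cd4b, Olfr767, Cpz, Slc18a3, Rit2, Tmc4, Mtnr1b, Dlk1, Mir99b and Qk, which were lower. Hey2 differed by 1.59 (SE 0.20, limma adjusted p = 0.0241), C2cd4b by -0.61 (SE 0.09, limma adjusted p = 0.0241), Dlk1 by -0.48 (SE 0.08, limma adjusted p = 0.0364) and Qk, an RNA-binding regulator of splicing, by -0.43 (SE 0.07, limma adjusted p = 0.0483). AY036118, an annotated transcript without a named function, read 8.37 to 9.36 in WT and 8.83 to 10.7 in TG, and its difference of 1.23 became 1.57. Its level fell with myocyte content, with a slope of -1.02.

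Some differences came with slopes near 0. The slopes of Klf11 (0.002), Mafg (0.01), Limd2 (0.01), Hes1 (-0.01) and Immp1l (-0.03) were small. Their differences at equal content were -0.21, -0.21, -0.21, 0.24 and 0.25. In this fit a slope near 0 leaves a difference unchanged by construction, so its persistence is no further result. Without serum Immp1l differed by 0.18 and the others by -0.07 to -0.01.

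**Figure D5:**
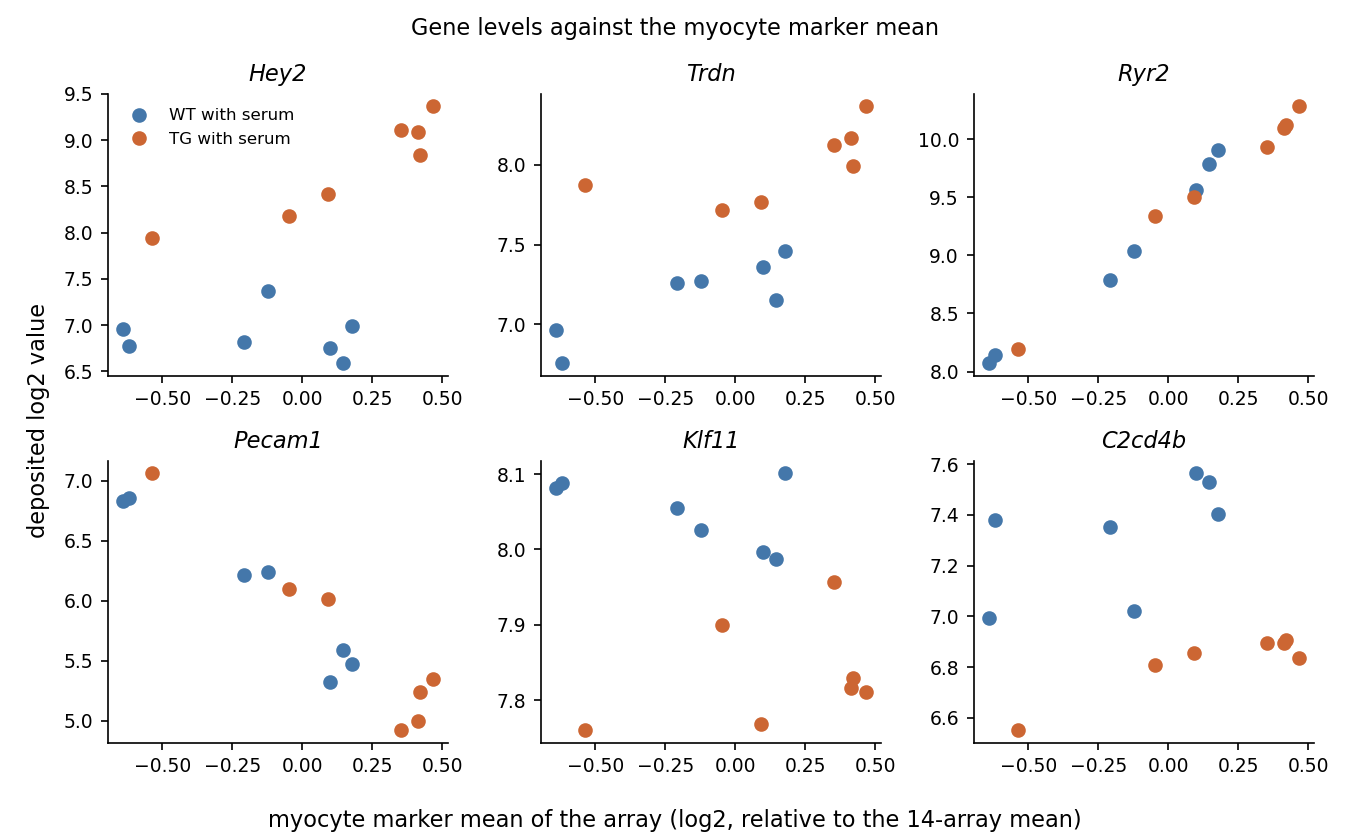
Deposited log2 value of 6 genes (y axis) against the myocyte marker mean of the culture (x axis, log2), 1 point per array, WT in blue and TG in orange, with Trdn shown by probe set 10362434. Ryr2 rises and Pecam1 falls along the marker mean in both genotypes, with 7 TG arrays of Hey2, Trdn, Klf11 and C2cd4b beyond all WT arrays.

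Single genes were set against the marker mean within each genotype, with 10 genes in 7 cultures of each, so 20 relations, and p from exact two-sided permutation tests. Hey2 followed myocyte content in TG, with r = 0.920 (exact permutation p = 0.00198, adjusted 0.00496; rho = 0.857, p = 0.0238, adjusted 0.0476), and r = 0.876 without the 2 cultures farthest from the median. In WT it was r = -0.102 (exact permutation p = 0.843, adjusted 0.843; rho = -0.107, p = 0.840, adjusted 0.884). The difference between the genotypes in this relation was not tested. Ryr2 had r = 0.990 in WT and 0.996 in TG (exact permutation p = 0.000198 in both, adjusted 0.00198), with rho = 1 in both (p = 0.000397, adjusted 0.00397). Myl2, Nppa and the brightest Trdn probe set had r of 0.958 to 0.998 in either genotype, with adjusted exact permutation p of 0.00265 to 0.00635.

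Pecam1 went the other way, with r = -0.967 in WT and -0.958 in TG (exact permutation p = 0.00397 and 0.00813, adjusted 0.00722 and 0.0136; rho = -0.821 and -0.643, adjusted p = 0.0569 and 0.174). Col1a1, the main fibrillar collagen gene, had r = -0.751 in TG (exact permutation p = 0.0452, adjusted 0.0603), which rested on 2 cultures, since without the 2 farthest r was 0.09. In WT r was -0.831 (exact permutation p = 0.0236, adjusted 0.0363; rho = -0.857, adjusted p = 0.0476), and -0.479 without the 2 farthest. Ndufv3 had r = 0.661 in WT and 0.785 in TG (exact permutation p = 0.108 and 0.0315, adjusted 0.134 and 0.0451), and 0.643 and 0.440 without the 2 farthest. Krt19, a keratin of epithelial and mesothelial cells, had r = -0.867 in TG and -0.288 in WT (exact permutation p = 0.00238 and 0.624, adjusted 0.00529 and 0.683). Cecr2 had r = 0.329 and 0.225 (exact permutation p = 0.476 and 0.648, adjusted 0.560 and 0.683). In all, 14 of the 20 Pearson relations had an adjusted p under 0.05.

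The TG effect with serum was set against that without serum in 1 fit over 25 arrays. The arrays with and without serum stand on different scales, which bears on this comparison. The interaction passed an adjusted p under 0.05 in 1 of 35557 probe sets (0.00281%), the unnamed probe set 10339585, whose TG difference was -0.77 with serum and 0.19 without (difference of the effects -0.96, limma adjusted p = 0.0236). Hey2 had a difference of effects of 0.23 (limma adjusted p = 1.000). Across 7634 well expressed genes the TG differences with and without serum had a Pearson r of 0.637. When only the difference with serum was taken at equal myocyte content, r was 0.192. The difference without serum was not adjusted, although TG lay 0.13 higher in the marker mean there too. The value of 0.192 therefore does not compare the 2 sets at equal content. The 2 sets of cultures share no array, but the study does not state whether they came from separate preparations. Its heat map of cultures without serum shows no WT 3, WT 4 or TG 6. The serum cultures of these numbers were lowest in myocyte markers. The deposited labels number the cultures without serum without such gaps. Genes are not independent replicates, so both r values are descriptions.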

How the data were processed

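RNA of 14 cultures (7 TG, 7 WT) was hybridized to 1 array each. The authors made the deposited log2 intensities with Robust Multichip Analysis in Expression Console 1.1, per the labels, and no per-sample column was left out (0). Other steps and the genome build are not given in the sources used here. Robust Multichip Analysis includes quantile normalization, which makes a difference relative to the other probe sets of an array, yet the medians of the deposited arrays still differed. Log2 differences of dim probe sets are compressed. Array intensities have no read depth, and the number of arrays limits the precision.

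Of 35557 probe sets 21789 carried 1 gene symbol, 1621 several and 12147 were unnamed here. Whether the unnamed ones measure transcripts is not known from the sources used here. Each probe set was fitted with limma 3.58.1 in R 4.3.3 (lmFit with 1 mean per group, then eBayes) on the 14 arrays, two-sided, with Benjamini-Hochberg adjustment over the whole array. A second fit added the myocyte marker mean, and another covered 25 arrays for the comparison with the cultures without serum. The methods were tested on simulated data with independent noise for each probe set and a covariate unrelated to genotype. The simulation does not test the fit with a marker mean that differs between genotypes, or genes that vary together. Of 604 entries in 26 gene lists, 574 matched a measured gene. The comparison, the lists and the tests were chosen with earlier results of these data known. Lists may share genes.

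Named by rule were Hey2, every gene with 1 symbol past an adjusted p of 0.05 or an unadjusted p of 0.0001, the 10 well expressed genes with the smallest p in each direction, up to 4 genes of each list with the smallest p, and Myh6, Myh7, Myl2, Nppa, Nppb, Acta1, Ryr2, Trdn, Atp2a2, Pln, Hey1, Heyl, Gata4, Nkx2-5 and Tbx5. The genes set against the marker mean, and those past the test in the fit with it, were named as well. Alternatives were quantile normalization again, centring, a mean-variance trend, array weights and 1 fit over 25 arrays. Dim probe sets (mean under 5) were left out, or only probe sets with 1 symbol were kept. A gene was also taken as the mean of its probe sets, and well expressed genes at other limits (6 or 8). Further alternatives were a replicate block (the replicate number as fixed terms), each array left out in turn, and marker means as covariates. Promoter sequences came from RefSeq. Cultures of the same number in the labels did not vary together over the whole array, which does not exclude a shared preparation.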

Additional observations from a re-analysis of the deposited data

Results flagged for a closer look

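In 402 groups of 7 arrays, 1 array lay far from the others of its group in 19. Chance gives about 1 in 20 such groups, and genes of 1 list are not independent. TG culture 6 was the far array in 9 of them. It was low in Myh6 (11.1), Atp2a2 (12.2), Gata4 (10.1), Nkx2-5 (9.81), Hand2 (7.37), C2cd4b (6.55) and Cldn5 (5.35), and in the means of the cardiac transcription factors (-0.30) and of the fetal and hypertrophy markers (-0.21). TG culture 4 was low in Scn4b (3.72) and Mrps33 (8.82) and high in Bnip3 (9.35). TG culture 1 was low in Immp1l (8.11) and Haus1 (7.56). WT culture 3 was low in Haus1 (7.21) and high in Zdhhc24 (8.28). WT culture 1 was high in Col6a3 (7.24) and low in Krt19 (10.3). WT culture 6 was high in the unnamed probe set 10341809 (2.37).

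The TG effect differed between cultures with and without serum in the unnamed probe set 10339585, by -0.96 in the interaction test of limma (adjusted p = 0.0236).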

How the results depend on the processing

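The test called 3 probe sets with the deposited values, 5 with centring, 5 with dim probe sets left out, 141 in 1 fit over 25 arrays, 32, 27 and 6 with the myocyte, endothelial and fibroblast marker mean as a covariate, and 1 without WT cultures 3 and 4, a setting chosen after seeing the data. Leaving out each array in turn gave 1 to 3. The 953 well expressed genes at an unadjusted p under 0.05 became 1821 with array weights, 1692 with centring, 477 without WT cultures 3 and 4, 528 at a mean of 8 or more, and 579 to 1840 with 1 array left out. Without WT cultures 3 and 4 and TG culture 6, also chosen after seeing the data, there were 947. The 5237 slopes became 2901 (without TG culture 6) to 5951 (without WT culture 1).

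Correlations of same-number residuals were -0.36 to 0.06, and 0 of the TG arrays correlated best with the WT array of their number. Residuals over the whole array cannot show whether cultures of 1 number shared a preparation, so pairing by number is not settled. With the number as a replicate block 1 probe set was called, 487 well expressed genes had an unadjusted p under 0.05 and 2018 slopes passed, the last chosen after seeing the data. Of single genes and probe sets named, the block ended 2 calls, of the unnamed pair, and added 0.

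Over 4810 values of single genes under an alternative, 30 turned sign, 30 lost a call and 62 gained one, 29 of these in the fit over 25 arrays. With the myocyte covariate the differences were Pygb -0.012, Gys1 -0.010, Psmd7 0.0082, Psmb3 0.014, Cnn1 -0.087, Myl2 -0.037, Nppa -0.0084, Acta1 -0.24, Ryr2 -0.091, Atp2a2 -0.10, Pln -0.0064, Hey1 0.027, Gata4 -0.046, Nkx2-5 -0.071, Pecam1 0.23, Col1a1 0.10, Trdn probe set 10362416 0.0097 and Trdn probe set 10362458 -0.016. With the endothelial covariate they were Cnn1 -0.020, Myh6 -0.043, Acta1 -0.17, Atp2a2 -0.066, Hey1 0.012, Gata4 -0.019, Nkx2-5 -0.038, Col1a1 0.076 and Trdn probe set 10362416 0.016. Without WT cultures 3 and 4 they were Acta1 -0.11, Atp2a2 -0.00074 and Col1a1 0.044. None of these had passed the adjusted test. Of 25 list medians 17 kept their sign with the myocyte covariate and 21 with the endothelial one. Centring turned 2 of 26, and quantile normalization 0. The cause of these shifts was not tested.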
